A study of Mus musculus with 6 samples.

Results

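The genes described here encode family 2 of the cytochrome P450 enzymes. They were taken as every gene of the deposited table whose symbol begins with Cyp2, a single subfamily letter and a number, which gave 49 of 22274 genes in 13 subfamilies. Cytochrome P450 enzymes of this family sit in the membrane of the endoplasmic reticulum, hold a haem group and take electrons from the reductase Por. In liver they oxidise drugs, other foreign compounds, steroids, retinoids and polyunsaturated fatty acids. Several are classic targets of the nuclear receptors CAR (Nr1i3) and PXR (Nr1i2), and in mice several differ in liver between the sexes under the control of growth hormone.

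RNA had been sequenced from livers of C57 mice. In 3 samples the mice had been given Ad-Dyrk1b, an adenovirus from which mouse Dyrk1b, a dual-specificity kinase, is overexpressed, and in 3 they had been given the control adenovirus Ad-EGFP. Both groups therefore carried adenovirus, and no uninfected liver was analysed here. The labels give neither the sex nor the age of the mice, nor the dose, the promoter of the virus or the time after infection. Nor do they state whether each sample was a mouse of its own, so the p-values reflect only how these samples varied, which may be technical in part. In bulk liver, fewer cells of a type and less RNA per cell cannot be told apart.

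Library totals ran from 17326516 to 20024888 counts. Dyrk1b stood at 62.2 to 101 FPKM (fragments scaled to gene length and library size) in the Ad-Dyrk1b libraries, against 3.81 to 4.97 FPKM in the Ad-EGFP libraries. The hepatocyte markers were all detected, and 1 of 12 was called higher and 0 lower. Beside this and the lists that follow, 7.36% of all tested genes were called higher and 4.81% lower. Ad-Dyrk1b replicate 3 stood apart in erythroid genes, whose summed counts reached 886, 1044 and 3694 CPM (counts scaled to the library total) in the Ad-Dyrk1b libraries, against 528, 716 and 875 CPM in the Ad-EGFP libraries; none of the 6 was called. Of 16 interferon response genes, 13 were called higher and 0 lower, with sums of 704 to 1059 CPM in Ad-Dyrk1b and 501 to 590 CPM in Ad-EGFP livers. Called higher were also 2 of 7 bile duct markers (329 to 447 CPM in Ad-Dyrk1b, 204 to 253 CPM in Ad-EGFP livers). The same held for 2 of 11 tested T and NK cell markers (45.4 to 72.1 CPM in Ad-Dyrk1b, 30.5 to 41.7 CPM in Ad-EGFP) and for 2 of 11 tested Kupffer cell and monocyte markers (923 to 1215 CPM in Ad-Dyrk1b, 625 to 1244 CPM in Ad-EGFP). No endothelial or stellate marker was called (10 tested in each list), nor any of the 3 tested genes of lung and olfactory epithelium. The log2 fold change of Ad-Dyrk1b over Ad-EGFP was positive in all 10 endothelial markers (median 0.37). It was positive in 2 of 10 stellate markers (median -0.23). Of 12 acute phase genes 2 were called higher and 1 lower. In these lists 1 marker, Scgb3a2 of the lung and olfactory list, was at 0 in all libraries. The part of these cell types and responses in the Cyp2 results was not tested.

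Cyp2 transcripts were more abundant in Ad-Dyrk1b livers, and the rise lay in some subfamilies and not in others. No count was found in any library for 6 of the 49 genes, 8 had too few counts to test and 35 passed the filter on low counts. Of these 35, 17 were called higher in Ad-Dyrk1b livers and 0 lower at an edgeR adjusted p under 0.05. Without adjustment, 20 Cyp2 genes were higher and 1 was lower at p under 0.05. The numbers called by other tools were 18 higher with 1 lower for DESeq2, and 16 higher with 0 lower for limma-voom. Over all 13201 genes tested, 7.36% were called higher and 4.81% lower. The share of tested Cyp2 genes called was 48.6%, and the share of all tested genes called in either direction was 12.2%. The median log2 fold change, Ad-Dyrk1b over Ad-EGFP as throughout, was 0.56 over the 35 tested Cyp2 genes and -0.005 over all tested genes. A rise of at least 1 log2 unit was called in 10 Cyp2 genes, and in 2.45% of all tested genes. These counts include Cyp2s1, which passed the filter only through the Ad-Dyrk1b libraries, so that its direction was fixed. Without it 16 of 34 genes were called higher, 9 of them by at least 1 log2 unit, and the median log2 fold change was 0.52.

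The FPKM values of the 2 groups did not overlap in 21 of the 35 tested genes, 19 of them with Ad-Dyrk1b on the higher side (20 and 18 without Cyp2s1). Over the 13201 tested genes this held for 32.8%, and 10.9% had Ad-Dyrk1b on the higher side. Without Ad-Dyrk1b replicate 3, the library with the high erythroid sum, 16 Cyp2 genes were called higher and 0 lower. Of the 17 calls 14 held in that fit, those of Cyp2c23, Cyp2d13 and Cyp2g1 were lost, and Cyp2a4 and Cyp2d12 were gained. When each library was left out in turn, 13 of the 17 calls held in all 6 fits. The other 4 were Cyp2c23, Cyp2c54, Cyp2d13 and Cyp2g1, and their values without single libraries are given with each gene below.

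**Figure D1:**
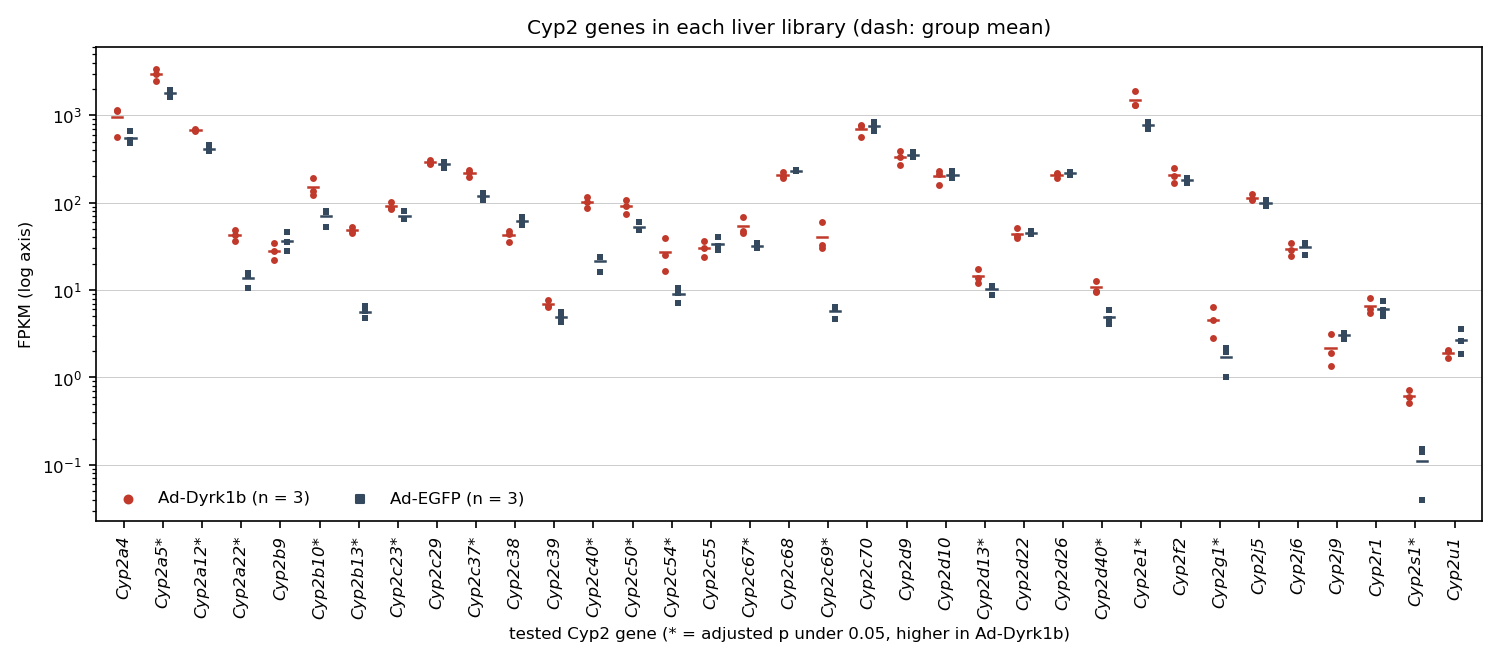
FPKM of the 35 tested Cyp2 genes (horizontal axis, grouped by subfamily) in each library on a log axis, with Ad-Dyrk1b circles left of Ad-EGFP squares and a dash at each group mean (n = 3 each); stars mark the 17 genes called. The groups are furthest apart in Cyp2b13, Cyp2c69, Cyp2s1 and Cyp2c40, while they overlap in Cyp2b9, Cyp2c70, Cyp2d10 and Cyp2j6.

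Summed over all 49 genes, Cyp2 transcripts made up 18074, 17767 and 16442 CPM in the Ad-Dyrk1b libraries, against 12098, 12541 and 11150.2 CPM in the Ad-EGFP libraries. The ratio of the group means was 1.46, and every Ad-Dyrk1b library lay above every Ad-EGFP library. The Cyp2a genes contributed most of the gap, with 8839 ± 1489.6 CPM in Ad-Dyrk1b and 5301 ± 419 CPM in Ad-EGFP livers (SD, n = 3 each, as for all values after ±, unless they are named as standard errors). Cyp2e1 came next, with 2747 ± 609 CPM in Ad-Dyrk1b and 1419 ± 121 CPM in Ad-EGFP livers. The Cyp2c sum differed less, at 3335 ± 129.7 CPM in Ad-Dyrk1b and 2943 ± 269 CPM in Ad-EGFP livers, a ratio of 1.13. Its groups only narrowly missed overlap, with the lowest Ad-Dyrk1b library at 3245 CPM and the highest Ad-EGFP library at 3194 CPM. The Cyp2b sum was low in abundance and had a ratio of 2, with 431 ± 83.4 CPM in Ad-Dyrk1b and 215 ± 35.7 CPM in Ad-EGFP livers. The Cyp2d sum was 1286 ± 148 CPM in Ad-Dyrk1b and 1343 ± 53.4 CPM in Ad-EGFP livers. Cyp2f2 had 384 ± 74.5 CPM in Ad-Dyrk1b and 333 ± 21.8 CPM in Ad-EGFP livers, and the Cyp2j sum was 378 ± 35.2 CPM in Ad-Dyrk1b and 352 ± 33.3 CPM in Ad-EGFP livers. These 3 overlapped between groups, as did Cyp2r1 (9.27 ± 1.57 CPM in Ad-Dyrk1b, 8.99 ± 0.852 CPM in Ad-EGFP) and Cyp2u1 (7.94 ± 0.756 CPM in Ad-Dyrk1b, 11.1 ± 3.06 CPM in Ad-EGFP). Within the family, Cyp2a took 50.5 ± 6.18% of all Cyp2 counts in Ad-Dyrk1b and 44.4 ± 0.911% in Ad-EGFP livers, and Cyp2c took 19.2 ± 1.06% in Ad-Dyrk1b and 24.7 ± 1.51% in Ad-EGFP livers. Sums are given with no test.

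**Figure D2:**
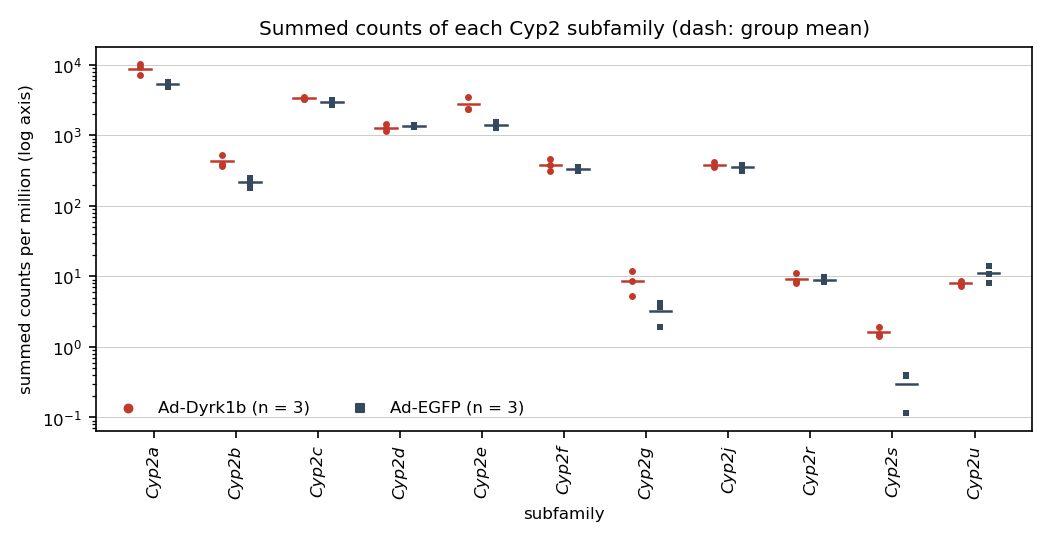
Summed counts of each Cyp2 subfamily with any count, in CPM of the library total on a log axis, with Ad-Dyrk1b circles left of Ad-EGFP squares and a dash at each group mean (n = 3 each). The groups are apart in Cyp2a, Cyp2b, Cyp2e, Cyp2g and Cyp2s, only narrowly apart in Cyp2c, and overlap in Cyp2d, Cyp2f, Cyp2j, Cyp2r and Cyp2u.

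All 4 Cyp2a genes were tested and 3 rose. Cyp2a5 (ENSMUSG00000005547), which hydroxylates coumarin, was the most abundant Cyp2 gene by FPKM. It stood at 3425, 2984 and 2493 FPKM in the Ad-Dyrk1b libraries, against 1789.8, 1955 and 1639 FPKM in the Ad-EGFP libraries. The groups did not overlap, and the rise was 0.81 ± 0.14 on the log2 scale (standard error, edgeR adjusted p = 0.00299). Cyp2a12, known in mice as a testosterone hydroxylase, had 673, 704 and 669 FPKM in Ad-Dyrk1b livers, against 391, 456 and 402 FPKM in Ad-EGFP livers. Its 3 values were close together within each group, and it rose by 0.80 ± 0.12 (adjusted p = 0.000974). Cyp2a22 had 43.0, 36.2 and 49.3 FPKM in Ad-Dyrk1b livers, against 14.6, 15.6 and 10.6 FPKM in Ad-EGFP livers. It rose 3.33-fold, more than Cyp2a5 or Cyp2a12, from a level far below theirs (log2 fold change 1.74 ± 0.16, adjusted p = 5.74e-05). Of the 100-base stretches in the transcripts of Cyp2a22, 3.98% also occur in Cyp2a12, and of its 50-base stretches 20.2%. Its single value is uncertain to the extent that reads were split between Cyp2a22 and Cyp2a12. Summed, Cyp2a12 and Cyp2a22 had 1223 ± 22.0 CPM in Ad-Dyrk1b and 725 ± 61.5 CPM in Ad-EGFP livers, a ratio of 1.69 with no overlap.

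Cyp2a4, which hydroxylates testosterone and is known as female-predominant in mouse liver, had 1161, 1117 and 561 FPKM in Ad-Dyrk1b livers, against 655, 526 and 483 FPKM in Ad-EGFP livers. Ad-Dyrk1b replicate 3 lay below Ad-EGFP replicate 1, and the gene was not called (log2 fold change 0.85 ± 0.27, adjusted p = 0.085). Without that library the log2 fold change was 1.11 with an adjusted p of 0.000778. Of the 100-base stretches in the transcripts of Cyp2a4, 11.2% also occur in Cyp2a5, and of its 50-base stretches 36.1%. Reads could thus have been split between Cyp2a4 and Cyp2a5. The pair summed to 8911, 7945 and 5992 CPM in Ad-Dyrk1b and 4741, 4849.5 and 4139 CPM in Ad-EGFP livers, which did not overlap. Of the Cyp2a counts, Cyp2a5 took 67.7 ± 2.20% in Ad-Dyrk1b and 68.1 ± 1.65% in Ad-EGFP livers. Cyp2a22 took 0.900 ± 0.287% in Ad-Dyrk1b and 0.457 ± 0.0564% in Ad-EGFP livers, with no overlap.

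Of the 3 tested Cyp2b genes, 2 rose and 1 was not called. Cyp2b13 had the largest log2 fold change of the 35 tested Cyp2 genes, Cyp2b10 rose about as much as the subfamily sum, and Cyp2b9 was not called. Cyp2b13 (ENSMUSG00000040583, chromosome 7, 26061497 to 26096197, plus strand, mm10) is known as female-predominant in mouse liver. It stood at 45.2, 52.0 and 47.6 FPKM in the Ad-Dyrk1b libraries, against 6.50, 5.73 and 4.74 FPKM in the Ad-EGFP libraries. The lowest Ad-Dyrk1b value was far above the highest Ad-EGFP value, and the rise was 9.06-fold (log2 fold change 3.18 ± 0.14, adjusted p = 1.07e-07). Its log2 fold change stayed between 3.06 and 3.31 when any 1 library was left out.

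Cyp2b10 (ENSMUSG00000030483, chromosome 7, 25897620 to 25926624, plus strand, mm10), the standard readout of CAR in mouse liver, had 137, 189.8 and 124 FPKM in Ad-Dyrk1b livers, against 53.0, 80.5 and 79.0 FPKM in Ad-EGFP livers. The groups did not overlap, and it rose 2.27-fold (log2 fold change 1.18 ± 0.21, adjusted p = 0.00774). Cyp2b9 (ENSMUSG00000040660, chromosome 7, 26173411 to 26210661, plus strand, mm10), likewise known as female-predominant, had 27.8, 34.4 and 22.0 FPKM in Ad-Dyrk1b livers, against 35.5, 46.1 and 28.2 FPKM in Ad-EGFP livers. Its groups overlapped (log2 fold change -0.29 ± 0.22, adjusted p = 0.419). The count of Cyp2b13 was 1.62, 1.51 and 2.17 times that of Cyp2b9 in the Ad-Dyrk1b libraries, against 0.183, 0.124 and 0.168 times in the Ad-EGFP libraries. Cyp2b9 was thus the more abundant of the pair in every Ad-EGFP library and the less abundant in every Ad-Dyrk1b library. Of all Cyp2b counts, Cyp2b13 took 21.3 ± 2.85% in Ad-Dyrk1b and 5.06 ± 1.46% in Ad-EGFP livers, and Cyp2b9 took 12.2 ± 0.952% in Ad-Dyrk1b and 32.1 ± 6.37% in Ad-EGFP livers.

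These values came from transcripts that can be told apart over most of their length. Of the 100-base stretches of Cyp2b9, 1.18% also occur in another gene, Cyp2b13, and none of those of Cyp2b10 occurs elsewhere. Of the 100-base stretches of Cyp2b13, 9.29% occur in another gene, mostly in the annotated locus Gm45225. Of the 50-base stretches more are shared, 27.3% in Cyp2b13, 11.2% in Cyp2b9 and 8.70% in Cyp2b10. The upstream sequences of Cyp2b13 and Cyp2b9, in contrast, are nearly the same, and they are shown because the 2 genes differed most in fold change within a subfamily while sharing this sequence. The 250 bases before each start site (RefSeq, GRCm38.p6) lie at chr7:26061245-26061494 for Cyp2b13 and chr7:26173159-26173408 for Cyp2b9, both on the plus strand. They are identical at 248 of 250 positions (99.2%), and capitals mark the 2 that differ, C48T and T104C, written as the Cyp2b13 base, the position from the 5′ end of the window and the Cyp2b9 base.
Cyp2b13: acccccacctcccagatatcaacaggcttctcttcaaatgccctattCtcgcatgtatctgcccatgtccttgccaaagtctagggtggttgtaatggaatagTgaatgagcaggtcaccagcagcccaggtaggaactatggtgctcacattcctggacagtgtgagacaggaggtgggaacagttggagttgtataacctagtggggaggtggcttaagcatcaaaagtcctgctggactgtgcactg
Cyp2b9: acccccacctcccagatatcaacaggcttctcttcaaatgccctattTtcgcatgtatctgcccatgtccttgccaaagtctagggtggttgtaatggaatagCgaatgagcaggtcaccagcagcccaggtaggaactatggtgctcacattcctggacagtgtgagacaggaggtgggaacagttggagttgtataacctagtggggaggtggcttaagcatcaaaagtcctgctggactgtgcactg
The same stretch of Cyp2b10 is 74.4% identical to either. What the 2 differing positions do was not tested.

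**Figure D3:**
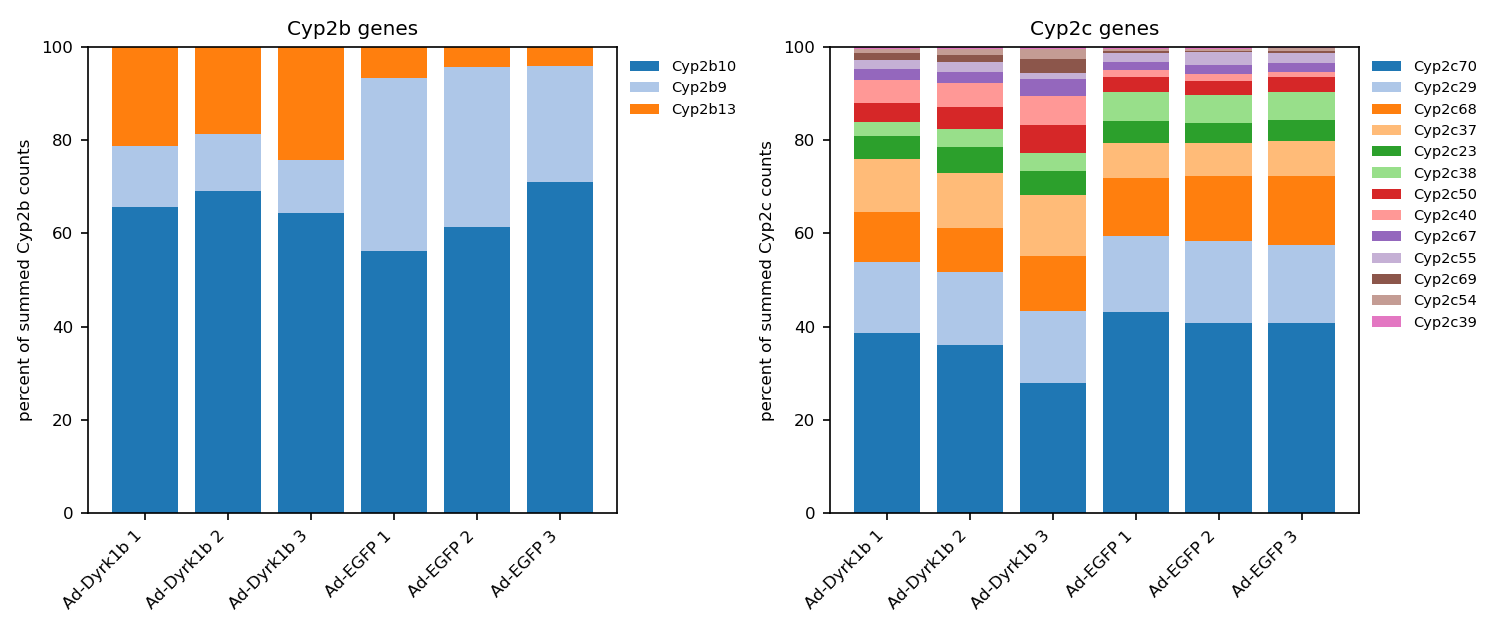
Share of the summed Cyp2b counts (left) and Cyp2c counts (right) taken by each gene, in percent, in the 3 Ad-Dyrk1b libraries (left bars) and the 3 Ad-EGFP libraries (right bars); genes with a mean share under 0.2% are left out. Cyp2b13 takes 21.3% in Ad-Dyrk1b and 5.06% in Ad-EGFP livers, and Cyp2b9 takes 12.2% in Ad-Dyrk1b and 32.1% in Ad-EGFP livers.

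The Cyp2c subfamily held the most genes. Of its 15 genes, 13 were tested, 7 rose and 0 fell. Cyp2c70, Cyp2c29 and Cyp2c68, which together made up most of the Cyp2c counts in each library, were not called. Most of these genes lie in a row on chromosome 19 and encode enzymes that oxidise arachidonic acid and related fatty acids.

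The 2 largest rises were in adjacent genes. Cyp2c40 (ENSMUSG00000025004, chromosome 19, 39767071 to 39812814, minus strand, mm10), an arachidonic acid hydroxylase known as female-predominant in mouse liver, had 87.5, 101 and 115 FPKM in Ad-Dyrk1b livers, against 24.2, 23.7 and 16.1 FPKM in Ad-EGFP livers. It rose 5.04-fold with no overlap (log2 fold change 2.33 ± 0.18, adjusted p = 3.81e-05). Cyp2c69 (ENSMUSG00000092008, chromosome 19, 39842814 to 39886799, minus strand, mm10) had 30.2, 32.4 and 59.4 FPKM in Ad-Dyrk1b livers, against 6.10, 6.45 and 4.61 FPKM in Ad-EGFP livers. Replicate 3 was the highest Ad-Dyrk1b library, and without it the gene stayed called (log2 fold change 2.92 ± 0.32 over all libraries, adjusted p = 0.0024, and at most 0.0252 with any 1 library left out). Cyp2c67 (ENSMUSG00000062624, chromosome 19, 39608842 to 39649051, minus strand, mm10) had 45.1, 48.0 and 67.8 FPKM in Ad-Dyrk1b livers, against 31.4, 34.9 and 30.2 FPKM in Ad-EGFP livers, and rose by 0.82 ± 0.15 (adjusted p = 0.00604). Cyp2c68 (ENSMUSG00000074882, chromosome 19, 39688834 to 39741054, minus strand, mm10), which lies between Cyp2c67 and Cyp2c40, had 202, 190.2 and 224 FPKM in Ad-Dyrk1b livers, against 232, 239 and 229 FPKM in Ad-EGFP livers. Every Ad-Dyrk1b value was the lower one, but the difference was small and not called (log2 fold change -0.10 ± 0.11, adjusted p = 0.596).

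These 4 neighbours share much of their transcript sequence, so their single values are uncertain to the extent that reads were shared out between them. Of the 100-base stretches, 35.4% in Cyp2c69, 34.4% in Cyp2c40, 23.7% in Cyp2c67 and 19.8% in Cyp2c68 occur in another gene, most often in one of the 4. For 50-base stretches the shares are 54.3%, 60.3%, 52.8% and 43.3% in the same order. Summed, Cyp2c40 and Cyp2c69 had 207, 236 and 304 CPM in Ad-Dyrk1b livers, against 53.6, 53.3 and 36.5 CPM in Ad-EGFP livers, a ratio of 5.21. All 4 together had 634, 646 and 807 CPM in Ad-Dyrk1b and 507, 525 and 483 CPM in Ad-EGFP livers, a ratio of 1.38, and neither sum overlapped between groups.

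The sequences upstream of the 4 genes are shown because they are related although the fold changes were not alike. The 250 bases before each start site (RefSeq, GRCm38.p6, minus strand) lie at chr19:39812815-39813064 for Cyp2c40, chr19:39886770-39887019 for Cyp2c69, chr19:39649043-39649292 for Cyp2c67 and chr19:39741102-39741351 for Cyp2c68. Capitals mark CAAAGTCCA, a letter string typical of binding sites of the liver factor Hnf4a, searched on both strands.
Cyp2c40: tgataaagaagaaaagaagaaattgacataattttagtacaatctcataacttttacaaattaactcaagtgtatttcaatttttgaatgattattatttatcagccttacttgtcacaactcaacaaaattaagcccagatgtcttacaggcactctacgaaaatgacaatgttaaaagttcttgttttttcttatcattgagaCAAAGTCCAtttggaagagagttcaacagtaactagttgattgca
Cyp2c69: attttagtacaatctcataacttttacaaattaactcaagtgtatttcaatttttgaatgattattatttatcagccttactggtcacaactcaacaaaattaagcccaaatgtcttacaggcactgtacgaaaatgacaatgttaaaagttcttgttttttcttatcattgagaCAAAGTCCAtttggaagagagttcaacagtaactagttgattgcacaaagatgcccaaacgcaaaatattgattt
Cyp2c67: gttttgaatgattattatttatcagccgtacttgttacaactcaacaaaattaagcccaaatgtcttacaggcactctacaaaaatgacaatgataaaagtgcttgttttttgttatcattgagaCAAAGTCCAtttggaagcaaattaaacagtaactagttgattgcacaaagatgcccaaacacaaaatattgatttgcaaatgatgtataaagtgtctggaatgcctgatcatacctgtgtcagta
Cyp2c68: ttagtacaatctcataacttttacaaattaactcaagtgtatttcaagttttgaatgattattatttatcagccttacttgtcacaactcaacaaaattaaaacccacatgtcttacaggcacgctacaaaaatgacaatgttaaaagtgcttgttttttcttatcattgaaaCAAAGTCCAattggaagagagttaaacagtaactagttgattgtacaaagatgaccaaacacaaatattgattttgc
All 4 windows hold the string, starting at position -45 in Cyp2c40, -75 in Cyp2c69, -125 in Cyp2c67 and -77 in Cyp2c68, counted back from the start site annotated for each. Aligned, Cyp2c69 and Cyp2c68 are identical at 232 of the 250 bases (92.8%) with 8 gap positions. Cyp2c40 and Cyp2c69 are identical at 217 (86.8%) with 60 gap positions. The windows end at start sites annotated at different places, and the gaps this makes lower the percentages. They therefore do not rank which genes are more alike. Of the 49 genes, 40 had a window in the RefSeq table. Among the tested ones, the string occurred in 3 of 13 called genes and 2 of 16 genes not called. The called ones were Cyp2c40, Cyp2c69 and Cyp2c67 and the others Cyp2c68 and Cyp2c70, so most hits are the related windows shown. Over all 32851 windows, which were not reduced to a single window per gene as for the Cyp2 genes, it occurred in 0.384%. It was thus present in genes that rose and in genes that did not. Other letter strings were searched too. TATAAA occurred in 6 of 13 called genes and 9 of 16 not called (12.4% of all windows). GTTAAT occurred in 3 and 3 (6.43%), and TTGCNNAA in 6 and 3 (9.56%).

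Downstream in the row on chromosome 19, Cyp2c37, Cyp2c54 and Cyp2c50, which encode arachidonic acid epoxygenases or hydroxylases, also rose. Cyp2c37 (ENSMUSG00000042248) had 199, 223 and 238 FPKM in Ad-Dyrk1b livers, against 130.3, 118 and 107 FPKM in Ad-EGFP livers, and rose by 0.98 ± 0.13 (adjusted p = 0.000521). Cyp2c50 (ENSMUSG00000054827) had 74.2, 92.7 and 109 FPKM in Ad-Dyrk1b livers, against 60.0, 49.1 and 48.9 FPKM in Ad-EGFP livers, and rose by 0.89 ± 0.16 (adjusted p = 0.00515). Neither pair of groups overlapped, and both calls held without any 1 library. Cyp2c54 (ENSMUSG00000067225) had 16.5, 25.3 and 39.9 FPKM in Ad-Dyrk1b livers, against 10.5, 7.14 and 9.21 FPKM in Ad-EGFP livers. Its Ad-Dyrk1b values were spread widely, and the log2 fold change was 1.69 ± 0.37 (adjusted p = 0.0363). The call did not hold without Ad-Dyrk1b replicate 2 (adjusted p = 0.0993) or without Ad-EGFP replicate 1, 2 or 3 (0.111, 0.129 and 0.114), where the log2 fold change of Cyp2c54 was 1.55 to 1.85. The 3 genes share sequence, with 4.70% of the 100-base stretches of Cyp2c37, 5.35% of Cyp2c50 and 7.59% of Cyp2c54 found elsewhere. At 50 bases, these 3 genes share 30.1%, 18.3% and 25.7% of their stretches with another gene, in the same order. Their sum was 612 ± 86.9 CPM in Ad-Dyrk1b and 325 ± 33.3 CPM in Ad-EGFP livers, a ratio of 1.88 with no overlap.

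Cyp2c23 (ENSMUSG00000025197), an epoxygenase whose gene lies apart from the others on chromosome 19, had 84.3, 103 and 87.7 FPKM in Ad-Dyrk1b livers, against 80.3, 65.4 and 64.6 FPKM in Ad-EGFP livers. Its groups came close to each other, and the log2 fold change was 0.47 ± 0.14 (adjusted p = 0.0392). The call did not hold without Ad-Dyrk1b replicate 2 or 3 (adjusted p = 0.144 and 0.0643) and without Ad-EGFP replicate 2 or 3 (0.111 and 0.131), where the log2 fold change of Cyp2c23 was 0.35 to 0.50. Cyp2c38 (ENSMUSG00000032808), an arachidonic acid epoxygenase, differed the other way, with 35.8, 46.9 and 44.2 FPKM in Ad-Dyrk1b livers, against 68.2, 63.2 and 54.8 FPKM in Ad-EGFP livers. Its groups did not overlap, but the log2 fold change of -0.46 ± 0.14 narrowly missed the threshold (adjusted p = 0.0524). DESeq2 (adjusted p = 0.0227) and the fit without Ad-Dyrk1b replicate 2 (0.0423) called it lower. Of the Cyp2c counts, Cyp2c38 took 3.63 ± 0.408% in Ad-Dyrk1b and 6.05 ± 0.112% in Ad-EGFP livers. Cyp2c39, a retinoic acid hydroxylase in mice, had 6.34, 7.72 and 6.52 FPKM in Ad-Dyrk1b livers, against 5.59, 4.97 and 4.26 FPKM in Ad-EGFP livers, and also just missed the threshold (log2 fold change 0.56 ± 0.17, adjusted p = 0.0526). Cyp2c38 and Cyp2c39 are neighbours on chromosome 19, and neither shares a 100-base stretch with another gene.

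Cyp2c70, Cyp2c29 and Cyp2c55 were not called. Cyp2c70, which makes muricholic acids in mouse bile, had 750.1, 771 and 562 FPKM in Ad-Dyrk1b livers, against 835, 742 and 657 FPKM in Ad-EGFP livers, with a log2 fold change of -0.02 ± 0.15. Cyp2c29, an epoxygenase inducible through CAR, had 280.0, 308 and 282 FPKM in Ad-Dyrk1b livers, against 292, 294 and 252 FPKM in Ad-EGFP livers, with a log2 fold change of 0.14 ± 0.12. Cyp2c55 had 30.4, 36.5 and 23.6 FPKM in Ad-Dyrk1b livers, against 32.3, 40.6 and 28.8 FPKM in Ad-EGFP livers, with a log2 fold change of -0.08 ± 0.18. All 3 overlapped between groups, with adjusted p of 0.944, 0.475 and 0.804.

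**Figure D4:**
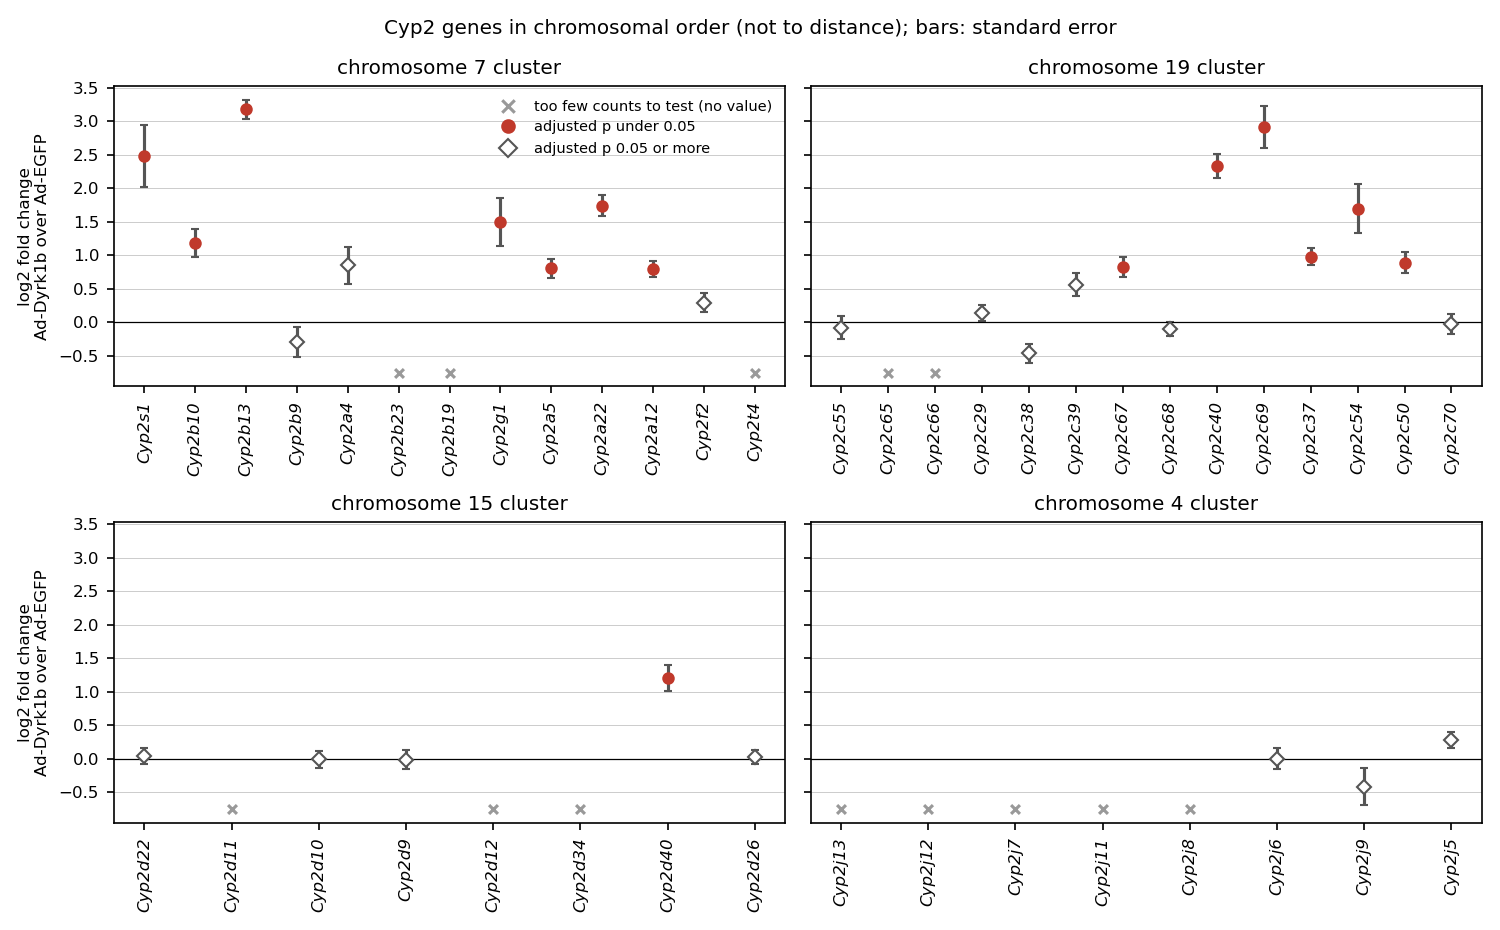
Log2 fold change of Ad-Dyrk1b over Ad-EGFP (vertical axis, bars are standard errors) for Cyp2 genes in their order along 4 chromosomes, not drawn to distance; filled circles were called, open diamonds were not, and crosses at the foot mark genes with too few counts for a value. Cyp2b9 at -0.29 lies next to Cyp2b13 at 3.18, and Cyp2c68 at -0.10 lies between Cyp2c67 at 0.82 and Cyp2c40 at 2.33.

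The abundant genes of the Cyp2d subfamily, which include the mouse relatives of human CYP2D6, were not called, and their groups overlapped. Cyp2d9, a testosterone hydroxylase known as male-predominant in mouse liver, had 272, 337 and 385 FPKM in Ad-Dyrk1b livers, against 331, 380.1 and 349 FPKM in Ad-EGFP livers. Cyp2d26 had 214, 194 and 219.6 FPKM in Ad-Dyrk1b livers, against 208, 216 and 225 FPKM in Ad-EGFP livers. Cyp2d10 had 158, 229.9 and 214 FPKM in Ad-Dyrk1b livers, against 196, 233 and 190.0 FPKM in Ad-EGFP livers. The log2 fold changes of these 3 genes were -0.01 ± 0.14, 0.03 ± 0.10 and -0.004 ± 0.13, each smaller than its standard error. Cyp2d22, held to be the closest mouse counterpart of CYP2D6, had 39.0, 41.4 and 51.5 FPKM in Ad-Dyrk1b livers, against 45.6, 47.4 and 43.4 FPKM in Ad-EGFP livers, with a log2 fold change of 0.04 ± 0.12. The adjusted p-values of the 4 genes ran from 0.843 to 0.987. Of the 100-base stretches of Cyp2d10, 11.7% occur in another gene, mostly Cyp2d11, and of its 50-base stretches 35.8%. For Cyp2d9 the shares are 7.91% and 21.8%.

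The 2 Cyp2d genes that rose are minor ones. Cyp2d40 (ENSMUSG00000068083) had 12.8, 9.59 and 9.81 FPKM in Ad-Dyrk1b livers, against 5.95, 4.62 and 4.12 FPKM in Ad-EGFP livers, a rise of 2.31-fold with no overlap (log2 fold change 1.21 ± 0.19, adjusted p = 0.00163). It shares no 100-base stretch with another gene, but 14.5% of its 50-base stretches occur in another gene. Cyp2d40 took 0.988 ± 0.269% of the Cyp2d counts in Ad-Dyrk1b and 0.426 ± 0.0938% in Ad-EGFP livers. Cyp2d13 (ENSMUSG00000118516) had 12.2, 13.6 and 17.6 FPKM in Ad-Dyrk1b livers, against 11.1, 11 and 8.84 FPKM in Ad-EGFP livers. Its groups were close, and the log2 fold change was 0.57 ± 0.16 (adjusted p = 0.041). The call was lost without any 1 library other than Ad-Dyrk1b replicate 1, with adjusted p of up to 0.146 and log2 fold changes of 0.40 to 0.65. Its identifier is not in the GENCODE annotation used, so its shared sequence was not counted.

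Cyp2e1 (ENSMUSG00000025479, chromosome 7, 140763739 to 140774987, plus strand, mm10) is the single gene of its subfamily. It encodes the enzyme that oxidises ethanol, acetone and paracetamol in the hepatocytes around the central vein. It had 1311, 1306 and 1885 FPKM in Ad-Dyrk1b livers, against 703, 831 and 792 FPKM in Ad-EGFP livers, and was the second most abundant Cyp2 gene by group mean in both. The groups did not overlap, and the rise was 2.06-fold (log2 fold change 1.04 ± 0.16, adjusted p = 0.00134). Replicate 3 was the highest Ad-Dyrk1b library, and without it the log2 fold change was 0.84 and still called.

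Of the genes that are alone in their subfamily, Cyp2s1 and Cyp2g1 also rose, both at low levels. Cyp2s1, known mainly from epithelia outside the liver, had 27, 39 and 27 counts in Ad-Dyrk1b livers, against 7, 2 and 7 counts in Ad-EGFP livers. That equals 0.510, 0.710 and 0.600 FPKM in Ad-Dyrk1b livers, against 0.140, 0.040 and 0.150 FPKM in Ad-EGFP livers. It passed the filter only through the Ad-Dyrk1b libraries, so a tested Cyp2s1 had to be the higher one there (log2 fold change 2.48 ± 0.46, adjusted p = 0.00474). Its exons overlap the non-coding gene Gm26707 on the opposite strand, and since no strand setting is stated, reads of that gene cannot be told apart from its own. Exons of Cyp2a4, Cyp2f2 and Cyp2u1 likewise overlap a non-coding gene on the opposite strand, and those of Cyp2c29 and Cyp2d9 a pseudogene on the same strand, so their counts are uncertain to that extent. Cyp2g1, known from olfactory mucosa, had 2.82, 4.58 and 6.34 FPKM in Ad-Dyrk1b livers, against 1.97, 2.2 and 1 FPKM in Ad-EGFP livers. Its log2 fold change was 1.5 ± 0.36 (adjusted p = 0.0267). The call was lost without any 1 library other than Ad-Dyrk1b replicate 1, with adjusted p of 0.0529 to 0.0865 and log2 fold changes of 1.19 to 1.69.

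The remaining genes with single or few members were not called. Cyp2f2, known for bioactivating naphthalene, had 201, 249 and 169 FPKM in Ad-Dyrk1b livers, against 169, 192 and 177 FPKM in Ad-EGFP livers (log2 fold change 0.30 ± 0.14, adjusted p = 0.200). Its groups overlapped, and so did those of Cyp2r1, a vitamin D 25-hydroxylase, with 8.04, 5.40 and 6.13 FPKM in Ad-Dyrk1b livers, against 7.55, 5.84 and 5.04 FPKM in Ad-EGFP livers (log2 fold change 0.12 ± 0.17, adjusted p = 0.683). Among the fatty acid epoxygenases of the Cyp2j subfamily, Cyp2j5 had 109, 125 and 110.1 FPKM in Ad-Dyrk1b livers, against 107, 101 and 92.0 FPKM in Ad-EGFP livers. Its groups did not overlap, but the difference was not called (log2 fold change 0.28 ± 0.12, adjusted p = 0.139). Cyp2j6 had 28.7, 34.2 and 24.6 FPKM in Ad-Dyrk1b livers, against 32.9, 34.4 and 25.3 FPKM in Ad-EGFP livers (log2 fold change 0.004 ± 0.15, adjusted p = 0.990). Cyp2j9 (2.15 ± 0.935 FPKM in Ad-Dyrk1b livers, against 3.04 ± 0.261 FPKM in Ad-EGFP livers) and Cyp2u1 (1.91 ± 0.222 FPKM in Ad-Dyrk1b livers, against 2.68 ± 0.853 FPKM in Ad-EGFP livers) were the least abundant genes not called, and are named after their values were seen. Both overlapped between groups, with adjusted p of 0.345 and 0.215.

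Untested genes added almost nothing to the sums. Cyp2c65 had 5, 4 and 2 counts in Ad-Dyrk1b livers, against 12, 12 and 6 counts in Ad-EGFP livers. Cyp2d12 had 21, 27 and 6 counts in Ad-Dyrk1b livers, against 2, 2 and 8 counts in Ad-EGFP livers, and Cyp2d11 had 6, 8 and 1 counts in Ad-Dyrk1b, against 5, 2 and 0 counts in Ad-EGFP livers. The other 5 (Cyp2b19, Cyp2b23, Cyp2j8, Cyp2j12 and Cyp2j13) had 1 to 6 counts over all 6 libraries. In fits that tested it, Cyp2d12 was called higher with no low-count filter (log2 fold change 2.09, adjusted p = 0.046), without Ad-Dyrk1b replicate 3 (2.48, adjusted p = 0.0226) and without Ad-EGFP replicate 3 (3.05, adjusted p = 0.0445). It was not called by DESeq2 (adjusted p = 0.0656) or without Ad-EGFP replicate 1 or 2 (0.173 and 0.155). Cyp2c65 and Cyp2d11 were called in no fit that tested them.

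**Figure D5:**
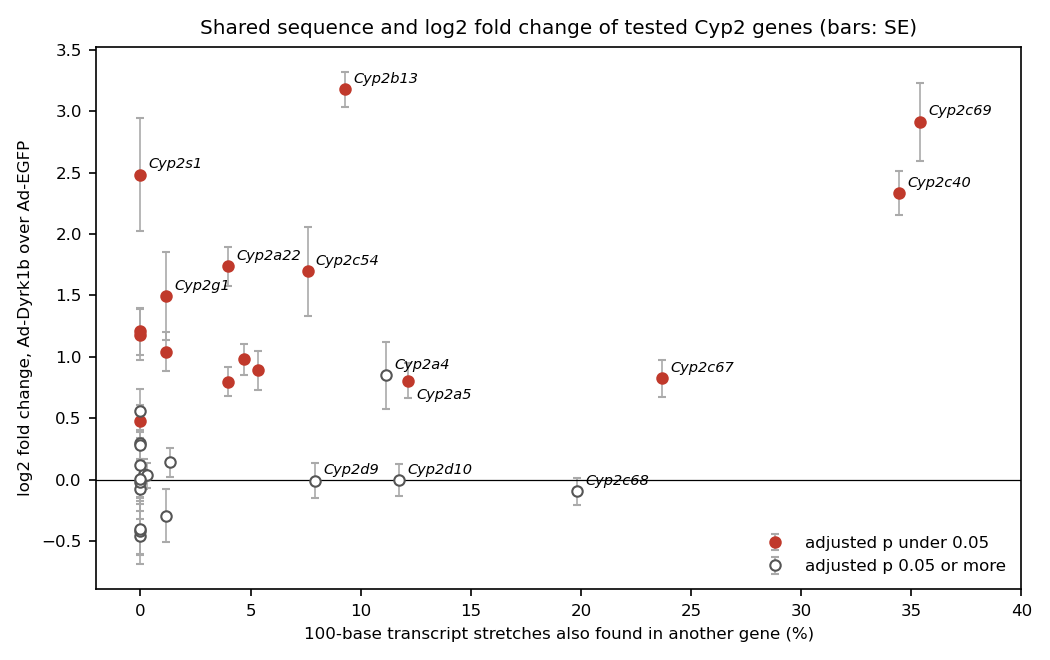
Log2 fold change of Ad-Dyrk1b over Ad-EGFP (vertical axis, bars are standard errors) against the percentage of 100-base transcript stretches also found in another gene, for the tested Cyp2 genes with transcripts in the annotation; filled points were called. Cyp2c69 and Cyp2c40 share most (35.4% and 34.4%), while Cyp2b10 and Cyp2d40 rose and share no 100-base stretch.

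Of 19 electron donors and enzymes of haem synthesis and breakdown, 1 was called higher and 0 lower, where 7.36% of all tested genes were called higher and 4.81% lower, with a median log2 fold change of -0.005, the same as over all genes tested. Por, the electron donor of all microsomal P450 enzymes, averaged 221 ± 23.4 FPKM in Ad-Dyrk1b livers, against 269.5 ± 3.73 FPKM in Ad-EGFP livers (log2 fold change -0.18 ± 0.12, adjusted p = 0.369). Alas1, the first enzyme of haem synthesis, averaged 448 ± 62.8 FPKM in Ad-Dyrk1b livers, against 364 ± 32.3 FPKM in Ad-EGFP livers (log2 fold change 0.38 ± 0.13, adjusted p = 0.0747), and DESeq2 called it higher (adjusted p = 0.027). The called gene was Fdx1, the electron carrier of mitochondrial P450 enzymes (60.6 ± 0.488 FPKM in Ad-Dyrk1b livers, against 44.7 ± 5.46 FPKM in Ad-EGFP livers, adjusted p = 0.0126).

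Of 35 tested receptors and factors known to act on Cyp2 genes, 2 were called higher and 4 lower, against 12.2% called in either direction over all genes, with a median log2 fold change of -0.12. The receptors most tied to Cyp2 induction were not called. Nr1i3 (CAR) averaged 33.8 ± 6.47 FPKM in Ad-Dyrk1b livers, against 32.6 ± 2.04 FPKM in Ad-EGFP livers (adjusted p = 0.629), and Nr1i2 (PXR) averaged 34.9 ± 0.895 FPKM in Ad-Dyrk1b livers, against 38.0 ± 3.66 FPKM in Ad-EGFP livers (adjusted p = 0.840). Hnf4a averaged 106 ± 9.67 FPKM in Ad-Dyrk1b livers, against 132 ± 2.09 FPKM in Ad-EGFP livers (log2 fold change -0.23 ± 0.11, adjusted p = 0.190). The genes called lower were Nr1d2 and Nr1d1, which encode REV-ERB repressors of the circadian clock, Foxa3, a liver pioneer factor, and Arnt, the partner of the dioxin receptor. Foxa3 averaged 14.7 ± 1.74 FPKM in Ad-Dyrk1b livers, against 25.7 ± 4.81 FPKM in Ad-EGFP livers (log2 fold change -0.72 ± 0.14, adjusted p = 0.00635). Called higher were Nr0b2, the corepressor SHP (59.0 ± 14 FPKM in Ad-Dyrk1b livers, against 36.8 ± 1.87 FPKM in Ad-EGFP livers, log2 fold change 0.76 ± 0.13, adjusted p = 0.00335), and Lgr5, a receptor of the Wnt pathway. The calls of Nr1d1, Lgr5 and Arnt were lost in 4, 4 and 5 of the 6 fits without 1 library, with adjusted p of up to 0.0637, 0.079 and 0.151.

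Known CAR and PXR targets outside family 2 were called in both directions, more of them higher. Of 26 tested, 6 were called higher and 2 lower, where 7.36% of all tested genes were called higher and 4.81% lower. The log2 fold change was positive in 20 of the 26, with a median of 0.33. Gstm2, a glutathione transferase, averaged 490.4 ± 109 FPKM in Ad-Dyrk1b livers, against 217 ± 30.3 FPKM in Ad-EGFP livers and rose by 1.26 ± 0.17 (adjusted p = 0.000931). The drug efflux pump Abcb1a rose by 0.77 ± 0.11 (adjusted p = 0.000764) and the glutathione transferase Gsta2 by 0.77 ± 0.14 (adjusted p = 0.00335). Abcc4 and Aldh1a1 were also called higher, but their calls were lost in several fits without 1 library, with adjusted p of up to 0.134 and 0.105. Sult1e1, the oestrogen sulfotransferase, averaged 72.8 ± 4.68 FPKM in Ad-Dyrk1b livers, against 159.6 ± 16.9 FPKM in Ad-EGFP livers, and its log2 fold change was -1.05 ± 0.11 (adjusted p = 7.74e-05). P450 genes of the other families also rose more often than they fell. Of 39 tested, 14 were called higher and 2 lower, against 7.36% and 4.81% of all tested genes. The log2 fold change was positive in 27 of the 39, with a median of 0.38. The difference between family 2 and the other families was not tested.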

How the data were processed

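RNA of 6 mouse liver samples was sequenced from mRNA libraries (NEBNext Ultra kit, Illumina NovaSeq), per the labels' protocols. The deposited table held raw counts per gene and library and FPKM made by the authors, per the file headers. It also held the authors' log2 ratio of group means and a p-value with its adjusted value, which were not used for any value given here. The build was mm10 and DESeq2 was used, per the submitters' processing notes. The aligner, counter, annotation and strand setting of the authors were not given in the sources used here.

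Counts were compared with edgeR 4.0.16 in R 4.3.3 (filterByExpr with a minimum count of 10 and a minimum total of 15, TMM, robust quasi-likelihood fit, two-sided). Adjusted p-values are Benjamini-Hochberg over all 13201 tested genes, called under 0.05. The fit was tested on simulated counts. Sums are raw counts scaled to the library total (CPM), with no test. Coordinates are from GENCODE M21, which uses mm10, and 48 of the 49 genes were found there. Shared stretches of 100 and of 50 bases were counted among its transcripts. Upstream sequences are from RefSeq. Members and lists were chosen with earlier results of these data known. Named are all called Cyp2 genes, Cyp2 genes with a mean of at least 5 FPKM, untested ones with at least 10 counts, and at most 6 called genes per list with the smallest p, plus Nr1i3, Nr1i2, Hnf4a, Por and Alas1. Alternatives were DESeq2 1.42.0, limma 3.58.1 (voom on counts, trend on log2(FPKM + 1) and log2(FPKM + 0.1)), other scalings and filters, a replicate block and each library left out. Totals of 17326516 to 20024888 counts limit genes with few counts, and PCR copies are not independent molecules.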

Additional observations from a re-analysis of the deposited data

How the results depend on the processing

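The number of Cyp2 genes called higher (17) was 13 to 18 under every alternative run: 13 to 17 with 1 library left out, and 15 to 18 with another tool, scaling or filter. The number called lower (0) was 1 with DESeq2, with limma-trend on log2(FPKM + 1) and log2(FPKM + 0.1), with total counts only and with no low-count filter, and 0 to 1 with 1 library left out. The gene was Cyp2c38 in each of these fits. Of the 17 genes, 13 were called under every alternative that tested them. Over all genes, 972 were called higher and 635 lower. With limma-trend 556 and 553 were higher (pseudocounts of 1 and 0.1). With total counts only 1051 were lower, and leaving out 1 library gave 612 to 801 higher and 294 to 461 lower. The share of calls that were higher was 60.5%, against 44.2% with limma-trend and 39.8% with total counts only.

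The log2 ratio of the sum over all Cyp2 genes was 0.547, and 0.631 with TMM-scaled library sizes. The Cyp2d sum had a log2 ratio of -0.0624, and 0.0263 with TMM-scaled library sizes (-0.153 to 0.0125 with 1 library left out). The Cyp2r sum had 0.0434 (-0.102 to 0.132 with 1 library left out). No other sum changed direction. Of 854 values for 57 single genes under alternatives, 757 kept direction and call, 59 lost a call, 12 gained one and 26 changed sign, all of these in genes not called. Those with total counts only, limma-trend with a pseudocount of 1 and with 0.1 were Cyp2d22 (-0.0437, -0.0570 and -0.0583), Cyp2d26 (-0.0502, -0.0511 and -0.0513) and Cyp2j6 (-0.0837, -0.0816 and -0.0840). Cyp2d10 had 0.00206 with DESeq2 size factors and 0.00142 with a minimum count of 50. With 1 library left out the log2 fold change was -0.275 to 0.0661 in Cyp2c55, -0.128 to 0.111 in Cyp2c70, -0.0879 to 0.128 in Cyp2d10, -0.0829 to 0.145 in Cyp2d22, -0.00912 to 0.0587 in Cyp2d26, -0.152 to 0.141 in Cyp2d9, -0.161 to 0.110 in Cyp2j6, -0.0531 to 0.194 in Nr1i3 and -0.0960 to 0.0125 in Nr1i2. The cause of these changes was not tested.

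Same-numbered samples share only a number: the correlations of their deviations from the group means were 0.0245, 0.172 and 0.108, and not every sample correlated best with its own number. With a replicate block 16 Cyp2 genes were called higher and 0 lower, and 1109 and 774 of all genes. In that fit Cyp2a4 was gained (adjusted p = 0.0144), and Cyp2c23 (0.0519) and Cyp2d13 (0.0657) were lost. With no low-count filter Cyp2c39 and Cyp2d12 were gained and Cyp2c54 was lost. Low counts limit Cyp2s1 and the 8 genes left untested.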
